A study of Rattus norvegicus with 8 samples.

Results

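The slit diaphragm and podocyte foot process genes described here are 9 genes chosen by symbol, Nphs1, Kirrel1, Cd2ap, Plce1, Ptpro, Magi2, Actn4, Tjp1 and Myo1e. Of these, 7 were named alone on at least 1 set of oligonucleotides of the array (a probe set), with 9 probe sets between them, out of 14217 genes and 31042 probe sets in all. Kirrel1 and Magi2 were not named on a probe set in the annotation used and were not analysed here. Nphs1 and Tjp1 have 2 probe sets each, and the brighter of the pair stands for the gene.

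Podocytes wrap the glomerular capillaries with interdigitating foot processes, and the gap between neighbouring processes is bridged by the slit diaphragm, a specialised cell junction that forms the last layer of the filtration barrier. Nephrin and the related Neph proteins span the gap, adaptor and scaffold proteins tie them to the membrane and to the cytoskeleton, and actin-binding proteins and myosins hold the foot process in shape. Inherited defects of many of these genes cause proteinuria.

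Isolated glomeruli came from male Dahl salt-sensitive rats (Dahl SS in the labels), a strain with spontaneous proteinuria, and from male SHR (spontaneously hypertensive rats), a strain without it. There were 4 groups of 2 rats, Dahl and SHR at 4 and at 6 weeks of age, with 1 array per rat. According to the paper's methods all rats were fed a low-salt diet, and the glomeruli were taken from the left kidney by magnetic retraction. The values are log2 intensities per probe set, so a difference of 1 is a doubling. The paper dates the onset of significant proteinuria in Dahl rats to 6 weeks of age, so the Dahl rats of 4 weeks preceded it. The inbred strains differ across the genome, so proteinuria or its later development cannot be told apart from other strain traits in these comparisons.

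The array medians ran from 4.11 to 4.16, and the 2 arrays of a group had correlations between 0.989 and 0.997 over all probe sets. Podocyte markers outside the 9 genes were present in every rat, with Wt1, the podocyte transcription factor, at 10.82 to 11.28, Synpo, which encodes synaptopodin, at 11.41 to 12.64 and Podxl, which encodes podocalyxin, at 11.55 to 12.25. Foxc2 (3.06 to 3.86) and Pla2r1 (3.19 to 3.47) were at low signal. Of the proximal tubule markers, 26 were measured, and their score was lowest in Dahl 6 weeks replicate 2 (-1.91, against -0.18 to 0.91 in the other rats). For a score, every gene of a list was centred on its own mean over the arrays, and the median of the list was taken in each rat.

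The promoters of Nphs1 and Ptpro are shown because they belong to the podocyte genes with one of the smallest and one of the largest strain differences among the 7. They are the 250 bases before the RefSeq start site in the reference rat (build GRCr8), which is neither of the strains studied, and capitals mark each CG pair. That of Nphs1 lies at chr1:94848011-94848260 on the plus strand, and that of Ptpro at chr4:171895261-171895510 on the plus strand.
Nphs1: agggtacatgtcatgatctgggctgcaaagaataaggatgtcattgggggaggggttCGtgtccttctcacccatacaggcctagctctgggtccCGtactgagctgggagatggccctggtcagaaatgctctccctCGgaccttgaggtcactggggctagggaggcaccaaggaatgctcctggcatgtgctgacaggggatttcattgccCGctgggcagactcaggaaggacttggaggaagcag
Ptpro: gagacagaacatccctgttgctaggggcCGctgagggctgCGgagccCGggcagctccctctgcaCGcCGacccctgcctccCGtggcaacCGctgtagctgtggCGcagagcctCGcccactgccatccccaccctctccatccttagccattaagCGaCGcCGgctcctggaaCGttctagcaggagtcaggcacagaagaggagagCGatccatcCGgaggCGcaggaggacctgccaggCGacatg
The Nphs1 promoter holds 4 CG pairs at a GC content of 57.2%, and the Ptpro promoter 17 at 66.0%. The median over 33469 rat promoters of the same length is 5. A promoter was listed for 7 of the 9 genes, and the others held from 1 CG pair (Tjp1) to 20 (Cd2ap). On both strands, 5 motifs were searched for. The E-box CAGCTG was found in Cd2ap and Myo1e (12.0% of all promoters), and the motif GCGNGGGCG of WT1 and EGR factors in Cd2ap (4.29%). The GC box GGGCGG (30.5%), the TATA box TATAAA (12.9%) and the homeodomain motif TAATTA (4.86%) were found in none of the 7. The array does not measure promoters, so these sequences are given as description.

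All 7 measured genes had a higher mean in Dahl than in SHR glomeruli, and 5 passed the test over both ages. Plce1 (1.68-fold), Ptpro (1.62-fold), Actn4 (1.40-fold), Myo1e (1.36-fold) and Tjp1 (1.33-fold) rose, whereas Nphs1 (1.18-fold) and Cd2ap (1.16-fold) did not pass. The test was limma on the 4 group means, with Benjamini-Hochberg adjustment over all probe sets at a threshold of 0.05. Over both ages, 34.7% of all probe sets differed, 10.6% being higher and 24.2% lower in Dahl rats. Among the 3588 genes with a mean log2 value of at least 8, the range in which the 7 genes lie, 21.7% were higher. The median log2 difference of the 7 was 0.45, beside -0.053 over all probe sets and 0.019 over those brighter genes. Members share arrays, so they are not independent of each other, and in bulk RNA more podocytes and more RNA per podocyte cannot be told apart.

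**Figure D1:**
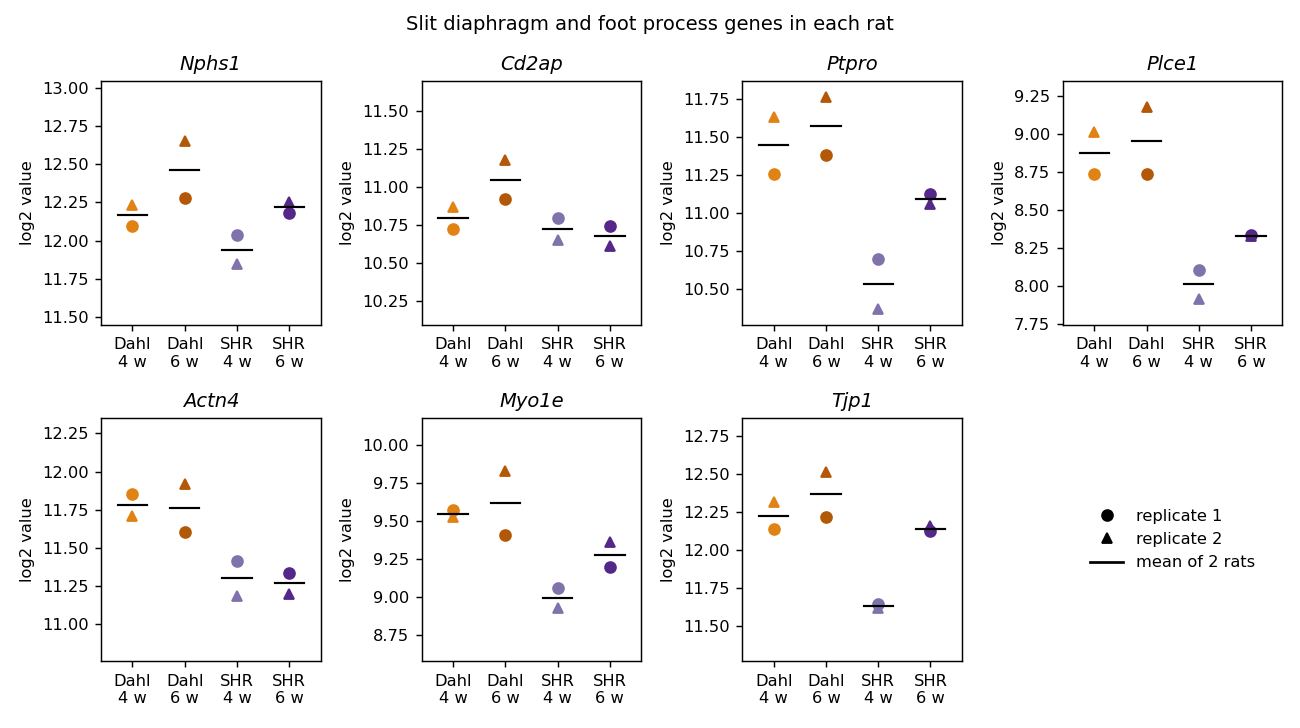
Log2 value (vertical axis, the same span in every panel) of the 7 measured genes, 1 panel per gene and 1 column per group. The first replicate is a circle, the second a triangle, and the horizontal line is their mean. In Plce1, Ptpro, Actn4 and Myo1e every Dahl rat lies above every SHR rat, and Dahl 6 weeks replicate 2 is the highest rat in all 7 panels.

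Nphs1 encodes nephrin, the transmembrane protein that spans the slit. Its log2 values were 12.10 and 12.23 in Dahl rats and 12.04 and 11.84 in SHR rats at 4 weeks, and 12.28 and 12.65 in Dahl rats and 12.18 and 12.26 in SHR rats at 6 weeks. The strains did not overlap within an age, but both SHR rats of 6 weeks lay above the lower Dahl rat of 4 weeks. The group means ran from SHR 4 weeks (11.94) through Dahl 4 weeks (12.17) and SHR 6 weeks (12.22) to Dahl 6 weeks (12.46), and the rats of Dahl 4 weeks and SHR 6 weeks overlapped. The strain difference over both ages was 0.24 on the log2 scale (standard error 0.10, 95% interval -0.029 to 0.50, adjusted p = 0.121). The dimmer probe set of Nphs1 had a difference of 0.43 (standard error 0.16, adjusted p = 0.0837), with 0.16 at 4 weeks and 0.69 at 6 weeks. It thus lay further apart at 6 weeks than the brighter one (0.25), and its interaction of strain and age was 0.53 (adjusted p = 0.705 in limma).

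Cd2ap encodes an adaptor that links nephrin to actin and to the endocytic machinery. At 4 weeks it stood at 10.73 and 10.87 in Dahl rats and at 10.80 and 10.65 in SHR rats, which overlap. At 6 weeks it stood at 10.92 and 11.18 in Dahl rats and at 10.75 and 10.61 in SHR rats, which do not. The strain difference was 0.22 over both ages (standard error 0.081, adjusted p = 0.0840), with 0.072 in the younger and 0.37 in the older rats. The interaction of strain and age was 0.30 (95% interval -0.12 to 0.71, adjusted p = 0.657).

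Ptpro encodes GLEPP1, a receptor tyrosine phosphatase of the podocyte foot process membrane. Its values were 11.25 and 11.63 in Dahl rats and 10.70 and 10.37 in SHR rats at 4 weeks, and 11.38 and 11.76 in Dahl rats and 11.12 and 11.06 in SHR rats at 6 weeks. All Dahl values exceeded all SHR values, and the SHR rats of 4 weeks were the lowest. The difference over both ages was 0.69 (standard error 0.14, adjusted p = 0.0294). At 4 weeks it was 0.91 (95% interval 0.38 to 1.43, adjusted p = 0.0530) and at 6 weeks 0.48 (95% interval -0.048 to 1.00, adjusted p = 0.166).

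Plce1 encodes phospholipase C epsilon 1, a signalling enzyme mutated in early-onset nephrotic syndrome, and it had the largest difference of the 7. The Dahl rats stood at 8.73 and 9.01 at 4 weeks and at 8.73 and 9.18 at 6 weeks. The SHR rats stood at 8.11 and 7.92 at 4 weeks and at 8.33 and 8.32 at 6 weeks. The strains did not overlap, with 8.73 as the lowest Dahl value and 8.33 as the highest SHR value. The difference was 0.74 over both ages (standard error 0.13, adjusted p = 0.0206) and 0.86 at 4 weeks (standard error 0.18, adjusted p = 0.0455). At 6 weeks it was 0.63, which did not pass (adjusted p = 0.108).

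Actn4 encodes alpha-actinin 4, which crosslinks actin filaments in foot processes and in many other cells. It stood at 11.85 and 11.71 in Dahl rats and at 11.41 and 11.19 in SHR rats at 4 weeks, and at 11.60 and 11.92 in Dahl rats and 11.33 and 11.20 in SHR rats at 6 weeks. All 4 Dahl values exceeded the 4 SHR values. The strain difference was nearly the same at both ages, 0.48 at 4 weeks and 0.50 at 6 weeks, and 0.49 over both (standard error 0.10, adjusted p = 0.0289). The difference between the ages was 0.017, with a 95% interval of -0.50 to 0.53.

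Myo1e encodes myosin 1E, a membrane-associated motor of podocytes. Its values were 9.57 and 9.53 in Dahl rats and 9.06 and 8.93 in SHR rats at 4 weeks, and 9.41 and 9.83 in Dahl rats and 9.20 and 9.36 in SHR rats at 6 weeks. The strains did not overlap, although the lowest Dahl rat (9.41) and the highest SHR rat (9.36) were close. The difference was 0.45 over both ages (standard error 0.11, adjusted p = 0.0372), 0.55 at 4 weeks and 0.34 at 6 weeks.

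Tjp1 encodes ZO-1, a scaffold of tight junctions that also sits at the slit diaphragm. The Dahl rats stood at 12.14 and 12.31 at 4 weeks and at 12.22 and 12.52 at 6 weeks. The SHR rats stood at 11.64 and 11.62 at 4 weeks and at 12.13 and 12.16 at 6 weeks. At 4 weeks the strains were well apart, whereas SHR 6 weeks replicate 2 lay just above Dahl 4 weeks replicate 1. The difference was 0.41 over both ages (standard error 0.079, adjusted p = 0.0260), 0.59 at 4 weeks (standard error 0.11, adjusted p = 0.0377) and 0.23 at 6 weeks (adjusted p = 0.205). The dimmer probe set of Tjp1 was at low signal in all rats (3.46 to 3.61), with a difference of 0.0095.

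In Plce1, Ptpro, Actn4 and Myo1e, 4 of the 7 genes, the Dahl rats lay above the SHR rats without overlap over both ages, beside 8.15% of all probe sets. At 4 weeks this held for 6 of the 7 (20.8% of all probe sets), all but Cd2ap, and at 6 weeks for all 7 (20.1%). The opposite order, with each Dahl rat below each SHR rat, was found in none of the 7. Of all probe sets it was found in 42.1% for the ages combined, 55.6% for 4 weeks and 54.5% for 6 weeks. These shares include many probe sets dimmer than the 7 genes, and they were not computed for brighter genes alone. Over both ages 35.2% of all probe sets had a higher mean in Dahl rats, beside 52.5% of genes with a mean of at least 8. At 4 weeks alone 2 of the 7 passed the test, Plce1 and Tjp1, where 12.0% of all probe sets differed, 5.63% being higher and 6.41% lower. Among the 3588 genes with a mean of at least 8, 465 were higher at this age. At 6 weeks none passed with limma (3.28% of all probe sets differed, 1.65% higher and 1.63% lower), while 3 had an unadjusted p under 0.05, namely Plce1, Actn4 and Cd2ap. This share is near the 34.1% of all probe sets that had one at this age. The methods' t-test gave none at 6 weeks before adjustment, beside 29.6% of all probe sets, and none after it, beside 4 of the 31042 probe sets. At 4 weeks this t-test gave 3 of the 7 before adjustment, beside 31.4% of all probe sets. After adjustment it gave none of the 7 at 4 weeks and 0 of all probe sets. The number of rats limits the precision at a single age, and the 95% intervals at 6 weeks reached up to 1.09 for Plce1 and 1.00 for Ptpro.

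**Figure D2:**
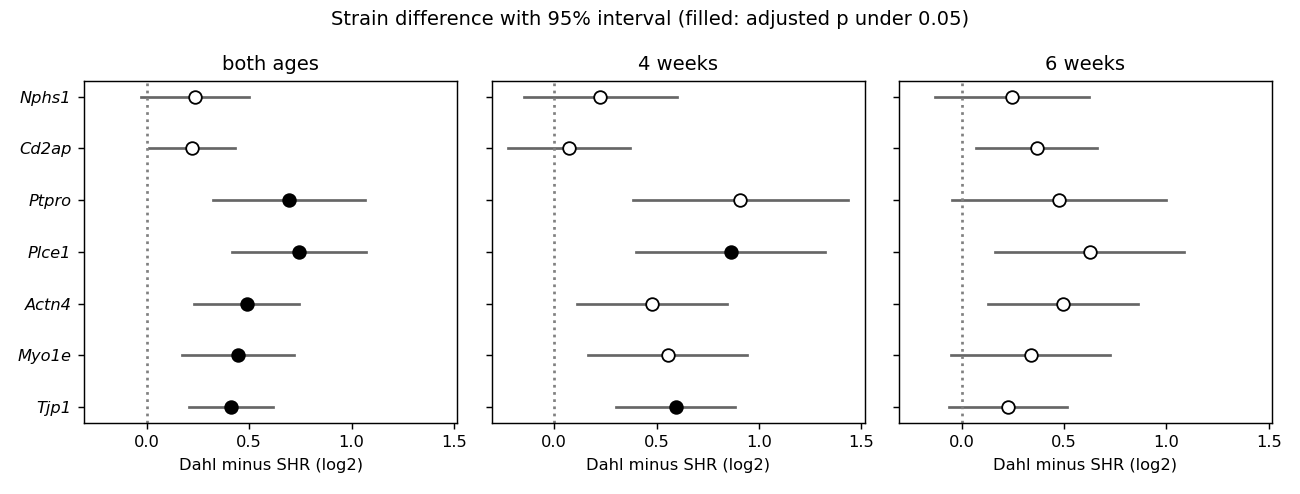
Log2 difference of Dahl minus SHR (horizontal axis) with its 95% interval from limma for each of the 7 genes, in 3 panels for the ages combined and each age alone. Filled points have an adjusted p under 0.05, and every point lies above 0. Over both ages 5 points are filled, at 4 weeks 2 and at 6 weeks none.

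From 4 to 6 weeks of age the log2 differences in Dahl rats ran from -0.016 for Actn4 to 0.30 for Nphs1, with a median of 0.12. In SHR rats they ran from -0.044 for Cd2ap to 0.56 for Ptpro, with a median of 0.29. None of the 7 passed limma or the methods' t-test after adjustment in either strain. Of all probe sets, limma called 0.0805% with age in Dahl rats and 2.42% in SHR rats, and the t-test 0 in each strain. At an unadjusted p under 0.05 in limma there were none in Dahl rats and 2 in SHR rats, Ptpro and Tjp1 (0.51, adjusted p = 0.113). The shares of all probe sets were 8.76% and 15.2%. In Tjp1, Ptpro, Nphs1, Plce1 and Myo1e both SHR rats of 6 weeks lay above both of 4 weeks, but not in Actn4 or Cd2ap. The share of all probe sets with this order was not computed. The change of the strain difference from 4 to 6 weeks was below 0 for Ptpro (-0.43), Tjp1 (-0.37), Plce1 (-0.24) and Myo1e (-0.22) and above 0 for Cd2ap, Nphs1 and Actn4. None of these passed limma (0.519% of all probe sets did), and none had an unadjusted p under 0.05, beside 11.0% of all probe sets.

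The 7 genes also varied together among rats of one group. In Dahl 6 weeks, replicate 2 exceeded replicate 1 in all 7 genes, by 0.26 to 0.44 on the log2 scale, while 44.7% of all probe sets were higher in it. In SHR 4 weeks, replicate 2 lay below replicate 1 in all 7, by 0.022 to 0.33, while 56.0% of all probe sets were higher in it. In Dahl 4 weeks 5 of the 7 were higher in replicate 2 (39.0% of all probe sets), and in SHR 6 weeks 3 were (58.1%). Dahl 6 weeks replicate 2 held the highest value of every one of the 7, and SHR 4 weeks replicate 2 the lowest of 6, the exception being Cd2ap. The score of the 18 podocyte identity markers measured was 0.41 in the first of these rats, the highest of the 8, and -0.30 in the second, the lowest. The proximal tubule score was -1.91 and 0.91 in the same 2 rats, the lowest and the highest.

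**Figure D3:**
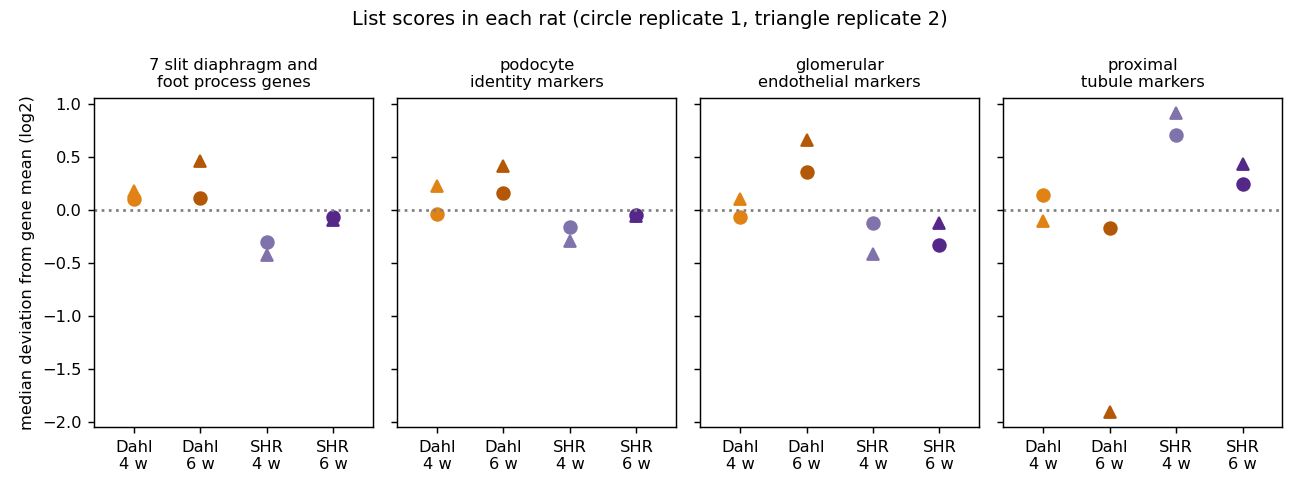
Score of 4 gene lists (vertical axis, median deviation from the gene mean, log2) in each rat. Marker shape tells the 2 rats of a group apart, and the dotted line is a score of 0. The score of the 7 genes ran from 0.095 to 0.45 in Dahl rats and from -0.43 to -0.066 in SHR rats, and the proximal tubule score from -1.91 to 0.14 in Dahl rats and from 0.24 to 0.91 in SHR rats.

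Other markers of glomerular cells differed in the same direction. Of the 18 podocyte identity markers, which do not include the 7 genes, 8 rose in Dahl rats over both ages and none fell, with a median log2 difference of 0.36. Their mean log2 value ran from 9.66 to 10.13 in Dahl rats and from 9.29 to 9.61 in SHR rats. Nes, which encodes the filament protein nestin, differed by 1.36 and Pdpn, which encodes podoplanin, by 0.55. Wt1 differed by 0.14 (adjusted p = 0.377), whereas Thsd7a (-0.16), Robo2 (-0.15) and Vegfa (-0.019) had lower means in Dahl rats and did not pass. The dimmer probe set of Vegfa was higher in Dahl rats, by 0.86, and passed (adjusted p = 0.0389 in limma). Those of Robo2 differed by 0.16 and 0.29 and that of Wt1 by 0.59, without passing. At 4 weeks 4 of the 18 markers rose and 1 fell, Thsd7a, by 0.66 on the log2 scale (adjusted p = 0.0451 in limma). Of 14 endothelial markers 8 rose (median 0.48), and of 26 proximal tubule markers 5 fell and 1 rose (median -1.06). The mean log2 value of the tubule markers was 8.66 to 10.50 in Dahl rats and 10.66 to 11.37 in SHR rats, so no Dahl rat reached the SHR rats. Of 17 distal nephron markers 7 fell (median -0.75), and of 14 mesangial and smooth muscle markers 9 rose (median 0.67). Of 16 leukocyte markers 10 rose and 4 fell (median 0.84). At 4 weeks 9 of them rose and 2 fell (median 1.32). At 6 weeks 0 rose and 1 fell (median 0.29), where 1.65% of all probe sets were higher and 1.63% lower. Some markers of the leukocyte and distal nephron lists were at low signal, such as Cd4 (2.15 to 2.20), Cd79b (2.15 to 2.24) and Avpr2 (2.19 to 2.29). Of all probe sets, 10.6% were higher and 24.2% lower in Dahl rats over both ages, and 5.63% and 6.41% at 4 weeks. Among genes with a mean of at least 8, 21.7% were higher over both ages. The part of these marker differences in the strain differences of the 7 genes was not tested.

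A pair of further fits set the 7 genes beside these scores. When the podocyte score was subtracted from every value of an array, a fit chosen after the data were seen, Plce1 and Ptpro still passed over both ages, with log2 differences of 0.41 (standard error 0.12, adjusted p = 0.0164) and 0.36 (standard error 0.12, adjusted p = 0.0227). They also passed at 4 weeks, at 0.54 and 0.58. Actn4 (0.16), Myo1e (0.12), Tjp1 (0.079), Nphs1 (-0.095) and Cd2ap (-0.11) did not pass. The subtraction moved the median difference of all probe sets from -0.053 to -0.38, and 70.5% of them then differed over both ages and 16.2% at 4 weeks. The unadjusted p values of Plce1 and Ptpro were 0.00446 and 0.0114. With the proximal tubule score as a covariate none of the 7 passed (0.831% of all probe sets did over both ages and 4.33% at 4 weeks), and over both ages Plce1 (0.44) and Tjp1 (0.22) had an unadjusted p under 0.05, as had 22.3% of all probe sets. The slope of that covariate rests mainly on the gap between the 2 Dahl rats of 6 weeks.

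**Figure D4:**
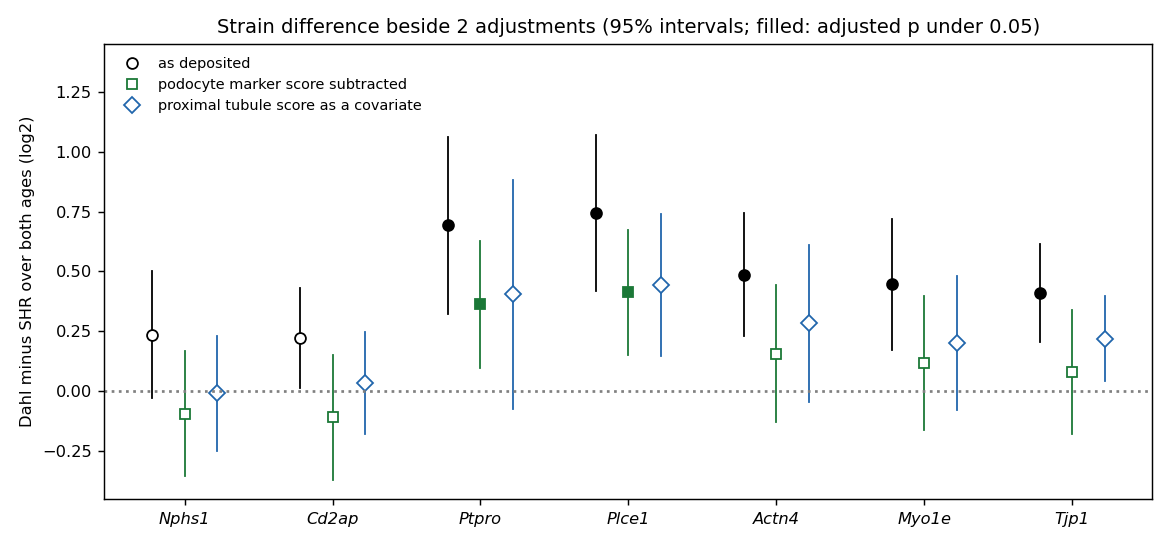
Log2 difference of Dahl minus SHR over both ages (vertical axis) with 95% intervals for the 7 genes, from the values as deposited (circles), after subtraction of the podocyte marker score (squares) and with the proximal tubule score as a covariate (diamonds). Filled points have an adjusted p under 0.05, which after the subtraction are Plce1 (0.41) and Ptpro (0.36).

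Among further genes of the slit diaphragm and its signalling, 4 of 22 rose in Dahl rats over both ages and none fell, with a median log2 difference of 0.18. This share is near that of all features, of which 10.6% of the probe sets and 21.7% of the genes with a mean of at least 8 were higher. Fat1, a giant protocadherin of the slit, stood at 11.27 to 11.57 in Dahl rats and at 10.53 to 11.00 in SHR rats, a difference of 0.63 (standard error 0.069, adjusted p = 0.00938). Sh3kbp1, an adaptor related to Cd2ap, differed by 0.86 (standard error 0.11, adjusted p = 0.0126). Iqgap1, a scaffold that binds actin and nephrin, differed by 0.30 and Ctnnb1, which encodes beta-catenin, by 0.16, and both passed. The 3 dimmer probe sets of Ctnnb1 gave 0.54, 0.11 and -0.040. Of the signalling genes that act at the tail of nephrin, the kinase gene Fyn differed by 0.49 (adjusted p = 0.0527). The adaptor genes Nck1 and Nck2 differed by 0.30 and 0.36 (adjusted p = 0.173 and 0.0575), so none of the 3 passed. Trpc6, a cation channel of the slit, lay at low signal in all rats (2.97 to 3.19). At 4 weeks 2 of the 22 rose, Fat1 and Sh3kbp1, beside 5.63% of all probe sets and 465 of the 3588 genes with a mean of at least 8. At 6 weeks none passed with limma, where 3.28% of all probe sets differed. At that age 6 had an unadjusted p under 0.05, as had 34.1% of all probe sets.

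Of 29 genes of foot process actin and adhesion, 15 rose over both ages and none fell, with a median of 0.38, beside the 10.6% of all probe sets and 21.7% of the brighter genes that were higher. In this list 11 passed at 4 weeks and 3 at 6 weeks, in each case upward, beside 5.63% and 1.65% of all probe sets. Of the 3588 brighter genes, 465 were higher at 4 weeks and 76 at 6 weeks. Synpo and Podxl are also among the podocyte identity markers. Arhgap24, which inactivates Rac1 in podocytes, stood at 12.45 to 12.90 in Dahl rats and at 11.51 to 12.41 in SHR rats, a difference of 0.71 (standard error 0.053, adjusted p = 0.00559). The small GTPase genes Rhoa (0.59), Cdc42 (0.58) and Rac1 (0.32) all passed. So did the genes of the laminin-binding integrin, Itga3 (0.84) and Itgb1 (0.48), and of its partner Cd151 (0.66). Synpo differed by 0.59 (standard error 0.089, adjusted p = 0.0164), and its 2 dimmer probe sets by 1.84 and -0.081. Dnm1, a dynamin of endocytosis, had the largest difference of this list, 1.75 (standard error 0.17, adjusted p = 0.00826), at 7.14 to 7.40 in Dahl rats and 5.16 to 5.82 in SHR rats. The study chose Dnm1 from these samples, so its direction here is no independent evidence. Dnm2, at low signal (3.79 to 4.03), differed by -0.034 (adjusted p = 0.663). By quantitative PCR of glomeruli, the paper found more Dnm2 than Dnm1 mRNA, and more Dnm2 in Dahl than in SHR rats before proteinuria began. On the array neither result was seen, and Dnm2 lay below Dnm1 in every rat. A probe set at such low signal cannot decide whether Dnm2 differs between the strains. Rhoa, Arhgap24 and Dnm1 passed at both ages.

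**Figure D5:**
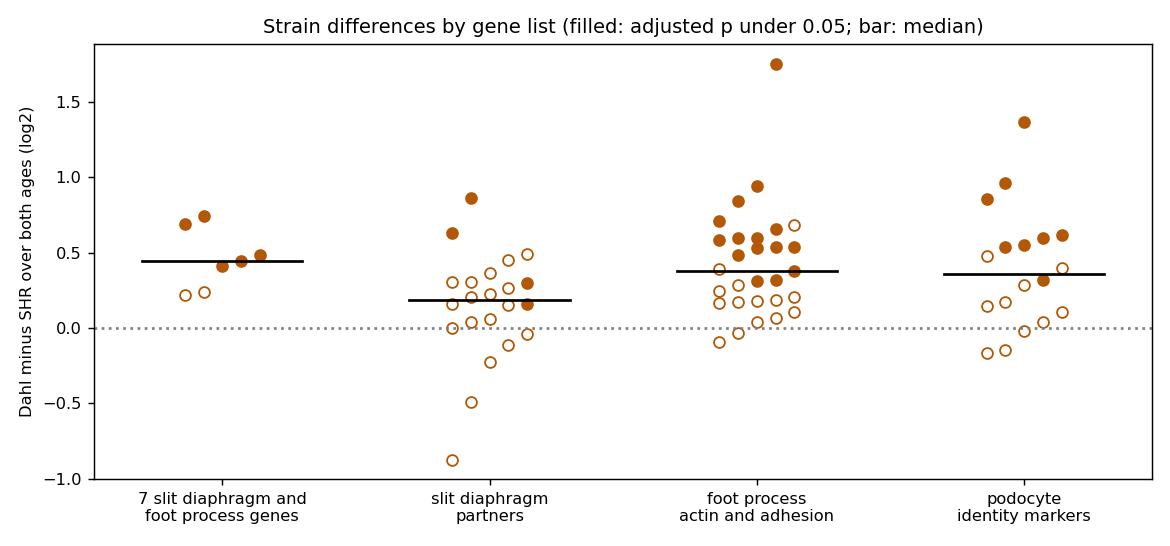
Log2 difference of Dahl minus SHR over both ages (vertical axis) for each gene of 4 lists, with filled points at an adjusted p under 0.05 and bars at the median. The medians are 0.45 for the 7 genes, 0.18 for 22 slit diaphragm partners, 0.38 for 29 genes of foot process actin and adhesion and 0.36 for 18 podocyte identity markers.

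The genes whose pattern over the 8 rats lay nearest to that of Nphs1 were Pnp, Ift43, Emcn, Ptpn13 and Fam117b. Nearness is the root mean square difference between the deviations of both genes from their means, searched among 7197 genes with a mean of at least 6, and it was 0.042, 0.047, 0.054, 0.060 and 0.065 on the log2 scale. Emcn, which encodes endomucin of endothelial cells, deviated by 0.41 in Dahl 6 weeks replicate 2 and by -0.38 in SHR 4 weeks replicate 2, where Nphs1 deviated by 0.45 and -0.35. Nearest to Plce1 were Anxa2, which encodes annexin A2 (0.058), Tmcc3 (0.066) and Map7d1 (0.071).

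The calls over both ages depended on single rats, while the signs did not. When single arrays were left out, the calls of the 7 genes went up and down with the number of all probe sets called. With each array left out in turn, the differences over both ages ran from 0.63 to 0.85 for Plce1, 0.60 to 0.79 for Ptpro, 0.41 to 0.57 for Actn4, 0.34 to 0.55 for Myo1e and 0.34 to 0.48 for Tjp1. None of the 7 genes passed in limma when the array left out was the second of Dahl 4 weeks, the second of SHR 4 weeks or either of SHR 6 weeks (5 had an unadjusted p under 0.05 in each of these fits, beside 38.7% to 42.5% of all probe sets), and 3 passed without Dahl 4 weeks replicate 1, Dahl 6 weeks replicate 2 or SHR 4 weeks replicate 1. Without Dahl 6 weeks replicate 1, Nphs1 stood at 0.33 and Cd2ap at 0.28, and the number of all probe sets called was the largest of these fits. Without Dahl 6 weeks replicate 2, the rat with the lowest tubule score, the genes that passed were Plce1, Tjp1 and Myo1e, and Ptpro stood at 0.60.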

How the data were processed

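RNA of isolated glomeruli from 8 rats in 4 groups was labeled as biotin cRNA and hybridized to Affymetrix rat genome arrays. The deposited log2 values had been corrected for background, normalized and summarized per probe set by the authors, whose notes name RMA and GCRMA. The sources used here do not say which of the 2 produced the deposited table, and give no version. From 31099 probe sets, 57 controls were left out. Genes were named from the annotation of the array and current symbols (20826 probe sets with 1 gene, 436 with several, 9780 with none), without a genome.

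Group means were compared by limma (version 3.58.1, R version 4.3.3), with 4 residual and 0.921 prior degrees of freedom, and p values were adjusted after Benjamini-Hochberg across the 31042 probe sets, with 0.05 as the threshold. It was tested on simulated data. Intervals are of 95%. The replicates are separate rats, and the number of arrays limits the precision. The genes, lists and tests were chosen with earlier results of these data known. The genes named are the 9 genes, up to 8 per list with the smallest p, some set genes, and the 5 and 3 nearest to Nphs1 and Plce1. Further markers and probe sets, such as Nes, Pdpn, Thsd7a, Robo2, Vegfa, Foxc2 or Pla2r1, were named after their values were seen. Cdc42 is the ninth of its list and was also named afterwards. Alternatives were other variances, normalizations, filters, probe sets, tests and models, a replicate block, and each array left out. The podocyte score subtraction and the tubule score at single ages were added after seeing the data.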

Additional observations from a re-analysis of the deposited data

How the results depend on the processing

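The strain differences of the 7 genes stayed above 0 over both ages with each array left out and in all other settings but 2. After subtraction of the podocyte score, Nphs1 and Cd2ap were at -0.095 and -0.11 over both ages and at -0.10 and -0.25 at 4 weeks, and Nphs1 and Tjp1 at -0.090 and -0.11 at 6 weeks. With the tubule score as a covariate, Nphs1 was at -0.0090 over both ages and -0.064 at 6 weeks, Tjp1 at -0.016 at 6 weeks and Cd2ap at -0.063 at 4 weeks. The cause was not tested. After quantile normalization Actn4 changed with age by 0.010 in Dahl and 0.036 in SHR rats, with an interaction of -0.026. With 1 array left out, the age difference in Dahl rats ran from -0.067 to 0.32 for Ptpro, -0.14 to 0.30 for Plce1, -0.18 to 0.14 for Actn4, -0.14 to 0.28 for Myo1e and -0.0060 to 0.29 for Tjp1. In SHR rats it ran from -0.15 to 0.080 for Actn4 and -0.12 to 0.028 for Cd2ap, and the interaction from -0.17 to 0.21 for Nphs1 and -0.14 to 0.18 for Actn4.

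Against 5 of the genes called over both ages, 2 were called with the replicate block, 0 with the tubule score, 2 after subtraction of the podocyte score and 0 to 7 with 1 array left out. Against 2 at 4 weeks, 4 were called with an intensity trend and with a mean of at least 6, 1 after quantile normalization and with the block, 0 with the methods' t-test, the tubule score or only arrays of 4 weeks, and 0 to 3 with 1 array left out. Against 0 at 6 weeks, 0 to 2 were called with 1 array left out. The labels number the replicates but state no pairing of rats. Deviations of rats with the same number correlated at -0.225 to 0.236 between groups. With so few rats per group, these values cannot tell whether rats of the same number shared a batch.

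Of all probe sets, 10787 were called over both ages, against 4740 after quantile normalization, 3719 with a mean of at least 6, 5598 with the replicate block, 258 with the tubule score, 21897 after the podocyte subtraction and 2286 to 11471 with 1 array left out. At 4 weeks there were 3738, against 10134 with the trend, 2369 with a mean of at least 6, 2028 with the block, 0 with the t-test, 1344 with the tubule score, 761 with only arrays of that age and 768 to 3905 with 1 left out. At 6 weeks there were 1017, against 8488 with the trend, 339 with the block, 4 with the t-test, 27 with the tubule score, 2 with only arrays of that age, 3298 after the subtraction and 63 to 3352 with 1 left out. For age in Dahl rats there were 25, against 4 with a mean of at least 6, 3 with the block, 0 with the t-test and 0 to 1043 with 1 left out. For age in SHR rats there were 751, against 360 with the block, 0 with the t-test and 64 to 940. The interaction gave 161, against 101 with a mean of at least 6, 31 with the block, 454 after the subtraction and 7 to 540.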
